A study of Mus musculus with 12 samples.

Results

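The common gamma chain family is a set of interleukins whose receptors share the chain encoded by Il2rg. Il2, Il7, Il15 and Il21 encode cytokines of the family, and Il2ra, Il2rb, Il7r, Il15ra and Il21r encode chains that bind them or pass on their signal. In lymphocytes the shared chain is bound by JAK3 and its partner chains by JAK1, and the signal is carried by STAT5 and STAT3. IL-15, presented by IL-15Rα on neighbouring cells, maintains cytotoxic T cells and NK cells, while IL-7 maintains T cells, and both are made by skin cells. Baricitinib is an inhibitor of JAK1 and JAK2. The genes were chosen by name, as 10 members of the family, and every probe set annotated with 1 of these symbols and no other gene was used. This gave 15 probe sets for 9 of the 10 genes, 6 probe sets for the 4 cytokines and 9 for 5 receptor chains, of 45037 probe sets and 18193 genes in all. Il2rg itself was not analysed here.

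Expression was measured on Affymetrix arrays in whole skin of C3H/HeJ mice that carried a graft of alopecic C3H/HeJ skin, a model of alopecia areata, in which hair is lost to an autoimmune attack on the follicle. After grafting the mice were aged until hair loss was nearly complete, and then treated on the skin once a day, with baricitinib or with vehicle control. Skin of 3 baricitinib mice was taken at week 12 and at week 0, and skin of 3 vehicle mice was taken at week 12 and at week 0, so that each of 4 groups had 3 arrays. All 4 groups carried the graft, and treatment began after disease was established, the arrays at week 0 being from its start. Skin of healthy mice was not analysed here. The values are log2 values from RMA, a method that sums the probes of a probe set, and a difference of 1 is a 2-fold difference. All 7 keratinocyte markers measured lay above the array median on all 12 arrays.

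The arrays differed in quality within groups as well as between them. Mean correlations with the other arrays ran between 0.941 and 0.973, and the lowest belonged to baricitinib week 0 replicate 2 (0.941) and baricitinib week 12 replicate 1 (0.946). The difference between 3′ and 5′ control probe sets of Gapdh and beta-actin, which grows as RNA is degraded or copied incompletely, was 3.45, 1.27 and 1.31 in the baricitinib week 12 samples, against 3.19, 4.10 and 2.55 in the baricitinib week 0 samples. It was 2.97, 3.10 and 3.58 in the vehicle week 12 samples, against 1.23, 3.67 and 4.08 in the vehicle week 0 samples. Both low-correlation arrays have the highest index of their group. The baricitinib week 12 values of 1.27 and 1.31 lie below every value of baricitinib week 0 and of vehicle week 12. The index is thus partly tied to the groups compared. The study's methods state that a baricitinib array at baseline, a baricitinib array at week 12 and a control array at baseline, the last from an experiment not named, failed quality control and were removed before the comparisons, without giving the replicates. All 12 arrays enter the fits here, and the differences of each gene are also given without the 2 low-correlation arrays.

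RefSeq promoter windows (GRCm38.p6), each 250 bases before the start site and 50 from it on, were held for 7 of the 10 genes in 8 windows. Those of Il2ra and Il7r are shown, since Il2ra has the lowest estimates of the family in both baricitinib comparisons and Il7r is the only 1 of the 7 with a match to a motif searched. Capitals mark the match, and none was found for Il2ra. Il2ra lies at chr2:11642542-11642841 on the plus strand, and Il7r at chr15:9529827-9530126 on the minus strand.
Il2ra: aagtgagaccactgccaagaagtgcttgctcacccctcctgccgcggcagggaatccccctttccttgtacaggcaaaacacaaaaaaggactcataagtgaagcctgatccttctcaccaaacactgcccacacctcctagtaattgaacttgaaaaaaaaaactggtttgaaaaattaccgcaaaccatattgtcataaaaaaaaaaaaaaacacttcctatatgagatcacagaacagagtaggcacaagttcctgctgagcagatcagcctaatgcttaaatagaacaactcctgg
Il7r: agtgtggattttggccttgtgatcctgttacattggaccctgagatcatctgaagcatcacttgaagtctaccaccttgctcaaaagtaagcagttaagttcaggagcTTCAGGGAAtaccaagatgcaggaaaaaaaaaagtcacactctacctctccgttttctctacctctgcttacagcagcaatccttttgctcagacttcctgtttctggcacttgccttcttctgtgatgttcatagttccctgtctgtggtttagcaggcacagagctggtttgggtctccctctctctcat
The STAT motif TTCNNNGAA was searched on both strands, and so was the interferon regulatory factor motif GAAANNGAAA. The STAT motif was found in 1 of the 8 windows, in Il7r at 142 to 134 bases before the start site, and in 8.3% of all 32851 windows. The second motif was in 0 of the 8 windows and in 3.44% of all windows. A match is a description of letters only.

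Across the family, no probe set passed the test in any comparison. Linear models (limma) were fitted to all 45037 probe sets that estimate 1 mean per group, and a probe set was called at a Benjamini-Hochberg adjusted p under 0.05. In baricitinib week 12 against baricitinib week 0, 0 of the 15 were called, against a background of 0.875% of all probe sets called lower and 0.362% called higher. In baricitinib week 12 against vehicle week 12 the count was again 0 of 15, against 0.429% lower and 0.151% higher. In vehicle week 12 against vehicle week 0, in the contrast of the 2 treatments' changes, and in baricitinib week 0 against vehicle week 0, 0 of the 15 were called, and 0% of all probe sets. At an unadjusted p under 0.05 by the same limma fit, 2 of the 15 were lower in baricitinib week 12 than in baricitinib week 0, both of Il2ra, where 6.05% of all probe sets were. Lower in baricitinib week 12 than in vehicle week 12 were 3 of the 15, where 6.01% of all were, and these were of Il2ra, Il7r and Il15ra. None was higher in either comparison. With the mouse as a fixed block, which fits the same mice at both times, 0 of the 9 genes were called between baricitinib week 12 and baricitinib week 0, and 130 probe sets of all were lower and 28 higher, against 394 and 163 without the block. In the other 3 comparisons 0 of the 15 had an unadjusted p under 0.05, against 2.46%, 6.27% and 1.13% of all probe sets, in the order given.

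Most estimates for the family were below 0. The median of its 15 probe sets was -0.15 for baricitinib week 12 against baricitinib week 0, with 10 of 15 below 0, and the median of all probe sets was 0.00. Against vehicle week 12 it was -0.28, with 11 of 15 below 0, and that of all probe sets 0.01. Both comparisons use the same baricitinib week 12 arrays. The estimates also leaned low where no drug was involved, with a median of -0.23 and 10 of 15 below 0 for vehicle week 12 against vehicle week 0, and of -0.17 and 13 of 15 for baricitinib week 0 against vehicle week 0. The medians of all probe sets were 0.02 and 0.02 there. Of all probe sets, 49.7%, 48.7%, 46.3% and 47.9% were below 0 in these comparisons, in the order given. For the difference between the 2 treatments' changes the family median was -0.004, with 9 of 15 below 0, where 52.4% of all were. Probe sets whose groups did not overlap are a description. In baricitinib week 12 against baricitinib week 0, 2 of the 15 were below on every array and 0 above, where 7.91% and 7.97% of all probe sets were. In baricitinib week 12 against vehicle week 12, 3 of the 15 were below on every array and 1 above, where 9.69% and 7.44% of all were.

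**Figure D1:**
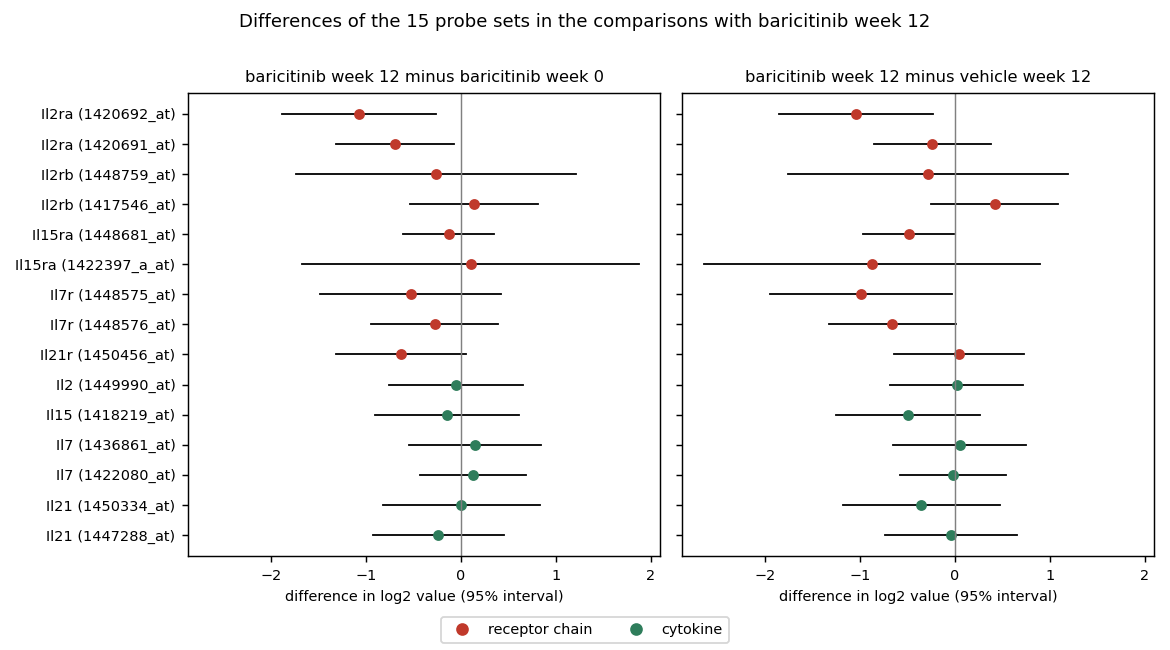
Difference in log2 value (x axis) for the 15 probe sets of the family (y axis), in baricitinib week 12 minus baricitinib week 0 (left) and baricitinib week 12 minus vehicle week 12 (right); points are limma estimates, lines 95% intervals, red for receptor chains and green for cytokines. Il2ra probe set 1420692_at is lowest in both panels (-1.07 and -1.04), and the cytokines lie between -0.50 and 0.15.

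Il2ra encodes IL-2Rα (CD25), the chain that gives the IL-2 receptor its high affinity and that is carried by activated T cells and regulatory T cells. Its probe set 1420692_at read 4.66, 5.24 and 4.56 in the baricitinib week 12 samples, against 6.36, 4.95 and 6.37 in the baricitinib week 0 samples. In the vehicle mice it read 5.59, 6.23 and 5.77 at week 12, against 6.39, 6.09 and 6.26 at week 0. The 3 baricitinib week 12 samples were below all vehicle samples, while baricitinib week 0 replicate 2 lay among them. The log2 difference between baricitinib week 12 and baricitinib week 0 was -1.07 (SE 0.37, 95% interval -1.88 to -0.26, limma adjusted p = 0.227). Against vehicle week 12 it was -1.04 (SE 0.37, limma adjusted p = 0.298). The difference between the 2 treatments' changes was -0.69 (SE 0.52, limma adjusted p = 0.937).

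One array decided whether Il2ra was called. Without baricitinib week 0 replicate 2, the log2 difference of probe set 1420692_at between baricitinib week 12 and baricitinib week 0 was -1.55 (SE 0.27) and the limma adjusted p was 0.0371. Leaving out baricitinib week 0 replicate 3 instead moved it the other way, to -0.83, and it was not called. Without either low-correlation array it was -1.47 (SE 0.28) with a limma adjusted p of 0.0404. Against vehicle week 12, the difference without these 2 arrays was -0.97 (limma adjusted p = 0.0883). Once the 3′ to 5′ index entered the fit, the differences were -1.33 against baricitinib week 0 (limma adjusted p = 0.0809) and -1.29 against vehicle week 12 (limma adjusted p = 0.108). Within the mice, the change was -1.70 and -1.81 in baricitinib mice 1 and 3 and 0.29 in baricitinib mouse 2, against -0.79, 0.14 and -0.49 in the vehicle mice.

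The other Il2ra probe set, 1420691_at, was below the array median on all 12 arrays. It read 3.54, 3.44 and 3.19 in the baricitinib week 12 samples, against 4.26, 4.05 and 3.96 in the baricitinib week 0 samples, and these groups did not overlap. The log2 difference was -0.70 (SE 0.28, limma adjusted p = 0.329). All 3 vehicle mice were lower at week 12 as well, with 3.47, 3.41 and 4.01 at week 12, against 3.61, 4.06 and 4.66 at week 0. Baricitinib week 12 and vehicle week 12 overlapped in this probe set, with a difference of -0.24 (SE 0.28, limma adjusted p = 0.877).

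Of regulatory T cell markers, which mark cells that carry IL-2Rα, 0 of 6 were called in either comparison. Their median log2 difference was 0.28 for baricitinib week 12 against baricitinib week 0, and 0.09 against vehicle week 12. Over the 6 genes the mean log2 value per array was 6.73 to 7.39 in baricitinib week 12, against 6.48 to 6.92 in baricitinib week 0. In the vehicle samples it was 6.61 to 7.01 at week 12 and 6.81 to 7.20 at week 0, both overlapping baricitinib week 12. Single genes ran between -0.65 and 2.01 against baricitinib week 0. In whole skin, fewer cells of a type and less RNA per cell cannot be told apart.

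**Figure D2:**
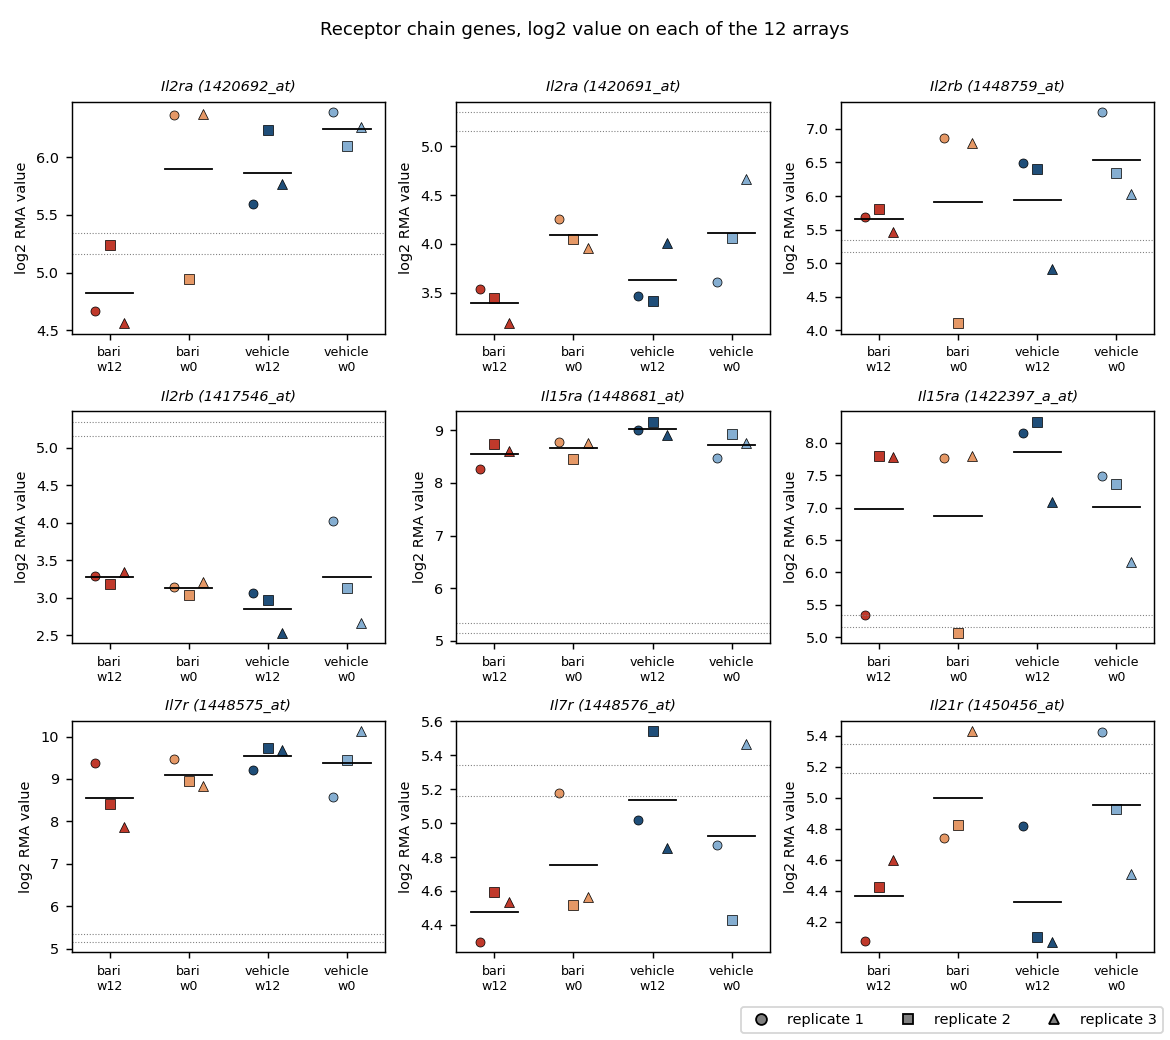
Log2 RMA value (y axis) of the 9 receptor chain probe sets in the 4 groups (x axis); each point is 1 array, its shape the replicate number, black lines are group means and dotted lines the lowest and highest array median. In Il2ra 1420692_at the baricitinib week 12 arrays read 4.56 to 5.24 and the vehicle week 12 arrays 5.59 to 6.23, and in Il2rb 1448759_at baricitinib week 0 replicate 2 stands at 4.10.

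Il2rb encodes the signalling chain that the IL-2 and IL-15 receptors share, and is carried by NK cells and memory T cells. Its probe set 1448759_at read 5.68, 5.81 and 5.47 in the baricitinib week 12 samples, against 6.86, 4.10 and 6.78 in the baricitinib week 0 samples. In the vehicle mice it read 6.50, 6.41 and 4.91 at week 12, against 7.25, 6.34 and 6.03 at week 0. The baricitinib week 12 samples lay between 5.47 and 5.81, and each other group was wider. Baricitinib week 0 ran between 4.10 and 6.86, the 4.10 being on a low-correlation array. Vehicle week 12 ran between 4.91 and 6.50, and vehicle week 0 between 6.03 and 7.25. The estimated difference was -0.26 against baricitinib week 0 (SE 0.67, 95% interval -1.74 to 1.21, limma adjusted p = 0.928) and -0.28 against vehicle week 12 (SE 0.67, limma adjusted p = 0.961). Without baricitinib week 0 replicate 2, the first of these became -1.17 (SE 0.48, limma adjusted p = 0.378), and without baricitinib week 0 replicate 1 it became 0.21. Without both low-correlation arrays the differences were -1.18 (SE 0.55) against baricitinib week 0 and -0.30 (SE 0.50) against vehicle week 12. With the index as a covariate they were -0.90 (SE 0.64, limma adjusted p = 0.495) and -0.89 (SE 0.64, limma adjusted p = 0.459).

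The second Il2rb probe set, 1417546_at, was dim, below the array median on all 12 arrays. It read 3.29, 3.19 and 3.35 in the baricitinib week 12 samples, against 3.06, 2.97 and 2.54 in the vehicle week 12 samples. It was the only probe set of the family that was above vehicle on every week 12 array, by 0.42 (SE 0.31, limma adjusted p = 0.734). Without the index in the fit, the 2 probe sets of this gene differed in sign in both comparisons with baricitinib week 12.

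Il15ra encodes the chain that binds IL-15 and presents it to neighbouring cells. Probe set 1448681_at was above the array median on all 12 arrays, and read 8.27, 8.74 and 8.61 in the baricitinib week 12 samples, against 8.78, 8.46 and 8.76 in the baricitinib week 0 samples. In the vehicle mice it read 9.01, 9.16 and 8.92 at week 12, against 8.48, 8.93 and 8.76 at week 0. All baricitinib week 12 samples were below all vehicle week 12 samples, but not below their own week 0. The log2 difference was -0.49 against vehicle week 12 (SE 0.22, limma adjusted p = 0.445) and -0.13 against baricitinib week 0 (SE 0.22, limma adjusted p = 0.882). The 95% interval of the second difference, -0.61 to 0.35, reaches to a fall of 1.52-fold. Without the low-correlation arrays the differences were -0.35 (SE 0.19) against vehicle week 12 and -0.10 (SE 0.21) against baricitinib week 0. At week 12 all 3 vehicle mice were higher than at week 0, with a difference of 0.30 (SE 0.22, limma adjusted p = 1.00).

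The other Il15ra probe set, 1422397_a_at, varied by array more than by group. It read 5.35, 7.80 and 7.78 in the baricitinib week 12 samples, against 7.77, 5.07 and 7.79 in the baricitinib week 0 samples. The vehicle samples gave 8.16, 8.32 and 7.08 at week 12, against 7.48, 7.36 and 6.16 at week 0. The 2 lowest values were those of the low-correlation arrays, and in each of the 4 groups the array of highest index had the lowest value. Its log2 difference was 0.10 against baricitinib week 0 (SE 0.81, limma adjusted p = 0.978) and -0.88 against vehicle week 12 (SE 0.81, limma adjusted p = 0.814). Without the 2 low-correlation arrays these were 0.02 (SE 0.50) and -0.06 (SE 0.45). With the index as a covariate they were -0.95 (SE 0.61, limma adjusted p = 0.441) and -1.87 (SE 0.60, limma adjusted p = 0.138).

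**Figure D3:**
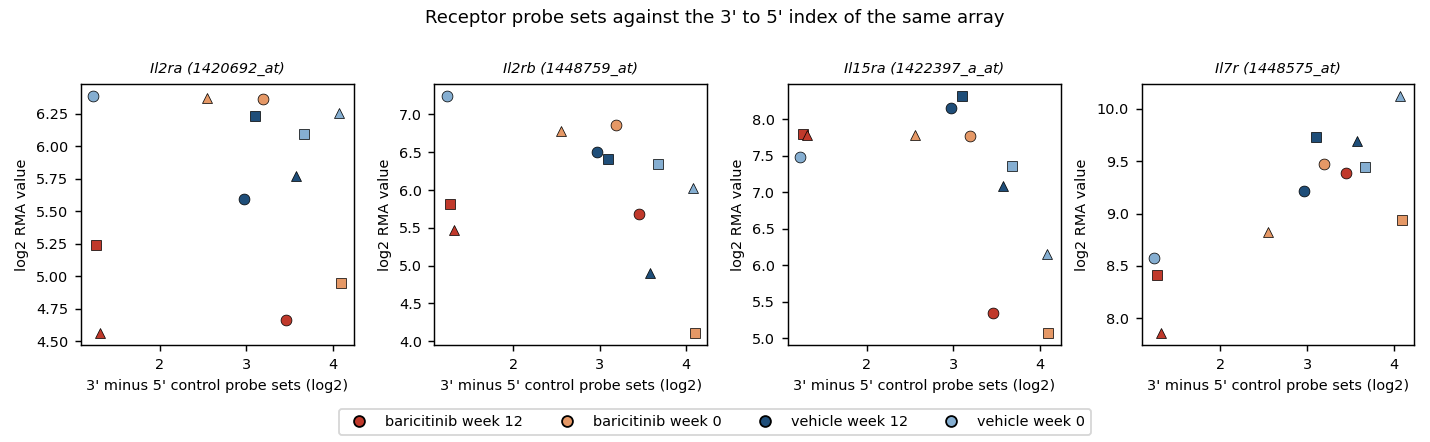
Log2 RMA value (y axis) of 4 receptor probe sets against the 3′ minus 5′ difference of control probe sets on the same array (x axis, log2); each point is 1 array, coloured by group and shaped by replicate. In Il15ra 1422397_a_at the lowest values, 5.07 and 5.35, are on arrays with an index of 4.10 and 3.45, while in Il7r 1448575_at the baricitinib week 12 arrays of index 1.27 and 1.31 read 8.42 and 7.86.

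Il7r encodes IL-7Rα (CD127), which marks naive and memory T cells and innate lymphoid cells. Probe set 1448575_at read 9.39, 8.42 and 7.86 in the baricitinib week 12 samples, against 9.48, 8.94 and 8.83 in the baricitinib week 0 samples. The vehicle samples gave 9.22, 9.73 and 9.69 at week 12, against 8.58, 9.45 and 10.13 at week 0. Baricitinib week 12 replicate 1 stood near the vehicle samples, and all 3 baricitinib mice were lower at week 12 than at week 0, by 0.09 to 0.97. The log2 difference was -0.53 against baricitinib week 0 (SE 0.44, limma adjusted p = 0.709) and -0.99 against vehicle week 12 (SE 0.44, limma adjusted p = 0.435). With the index as a covariate it was 0.05 against baricitinib week 0 and -0.45 against vehicle week 12, and without the 2 low-correlation arrays it was -1.02 and -1.41. The dimmer probe set 1448576_at read 4.30, 4.60 and 4.54 in the baricitinib week 12 samples, against 5.02, 5.54 and 4.85 in the vehicle week 12 samples. These groups did not overlap, with a difference of -0.66 (SE 0.31, limma adjusted p = 0.470), and the difference against baricitinib week 0 was -0.28 (SE 0.31).

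Il21r encodes the receptor chain for IL-21, carried by T, B and NK cells. It read 4.08, 4.43 and 4.60 in the baricitinib week 12 samples, against 4.74, 4.82 and 5.43 in the baricitinib week 0 samples. In the vehicle mice it read 4.82, 4.10 and 4.07 at week 12, against 5.43, 4.93 and 4.51 at week 0. It was lower at week 12 in all 3 baricitinib mice and in all 3 vehicle mice. The fitted log2 difference was -0.63 with baricitinib (SE 0.31, limma adjusted p = 0.465) and -0.63 with vehicle (SE 0.31, limma adjusted p = 1.00). The difference between these changes was 0.00 (SE 0.44), with baricitinib week 12 and vehicle week 12 0.04 apart (SE 0.31). With the index as a covariate, the difference against baricitinib week 0 was -0.98 (SE 0.25, limma adjusted p = 0.0602) and that against vehicle week 12 turned to -0.29 (SE 0.25, limma adjusted p = 0.538), while the difference between the changes became -0.42. Without the low-correlation arrays they were -0.57 (SE 0.38) and 0.18 (SE 0.34). Il21r was above the array median on 2 of the 12 arrays.

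The cytokine genes formed a measured pair and a pair below the array median. Il15 was above the array median on all 12 arrays, and read 6.79, 7.69 and 7.62 in the baricitinib week 12 samples, against 7.72, 7.42 and 7.39 in the baricitinib week 0 samples. In the vehicle mice it read 7.79, 7.58 and 8.21 at week 12, against 6.80, 7.57 and 8.04 at week 0. The groups overlapped, and baricitinib week 12 replicate 1 gave the lowest value of all. The change was -0.15 against baricitinib week 0 (SE 0.35, 95% interval -0.91 to 0.61, limma adjusted p = 0.919) and -0.50 against vehicle week 12 (SE 0.35, limma adjusted p = 0.708). Without baricitinib week 12 replicate 1 these were 0.14 and -0.21, and without both low-correlation arrays 0.09 and -0.21. The interval leaves room for a fall of up to 1.87-fold against baricitinib week 0.

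Il7 was likewise above the array median on all 12 arrays by probe set 1436861_at. It read 6.81, 7.62 and 7.42 in the baricitinib week 12 samples, against 6.96, 7.61 and 6.83 in the baricitinib week 0 samples, and 7.39, 7.07 and 7.24 in the vehicle week 12 samples. The groups overlapped. The log2 difference was 0.15 against baricitinib week 0 (SE 0.32, 95% interval -0.55 to 0.85, limma adjusted p = 0.913) and 0.05 against vehicle week 12 (SE 0.32, limma adjusted p = 0.990), and without the low-correlation arrays these were 0.63 (SE 0.30) and 0.29 (SE 0.28). The dimmer probe set 1422080_at, above the array median on 7 of 12 arrays, gave 0.13 (SE 0.26) and -0.02 (SE 0.26).

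Il2 and Il21, which encode cytokines made chiefly by activated CD4 T cells, were below the array median on every array. Il2 read 3.67 to 4.70 over the 12 arrays, with a log2 difference of -0.05 between baricitinib week 12 and baricitinib week 0 (SE 0.32, limma adjusted p = 0.972) and of 0.02 against vehicle week 12 (SE 0.32). Without the low-correlation arrays these were -0.53 (SE 0.28) and -0.32 (SE 0.26). The Il21 probe sets read 2.34 to 3.89 (1450334_at) and 1.83 to 3.01 (1447288_at). Their differences against baricitinib week 0 were 0.00 (SE 0.38) and -0.24 (SE 0.32), and against vehicle week 12 they were -0.35 (SE 0.38) and -0.04 (SE 0.32). For 1450334_at they were -0.23 (SE 0.39) and -0.71 (SE 0.35) without the low-correlation arrays.

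**Figure D4:**
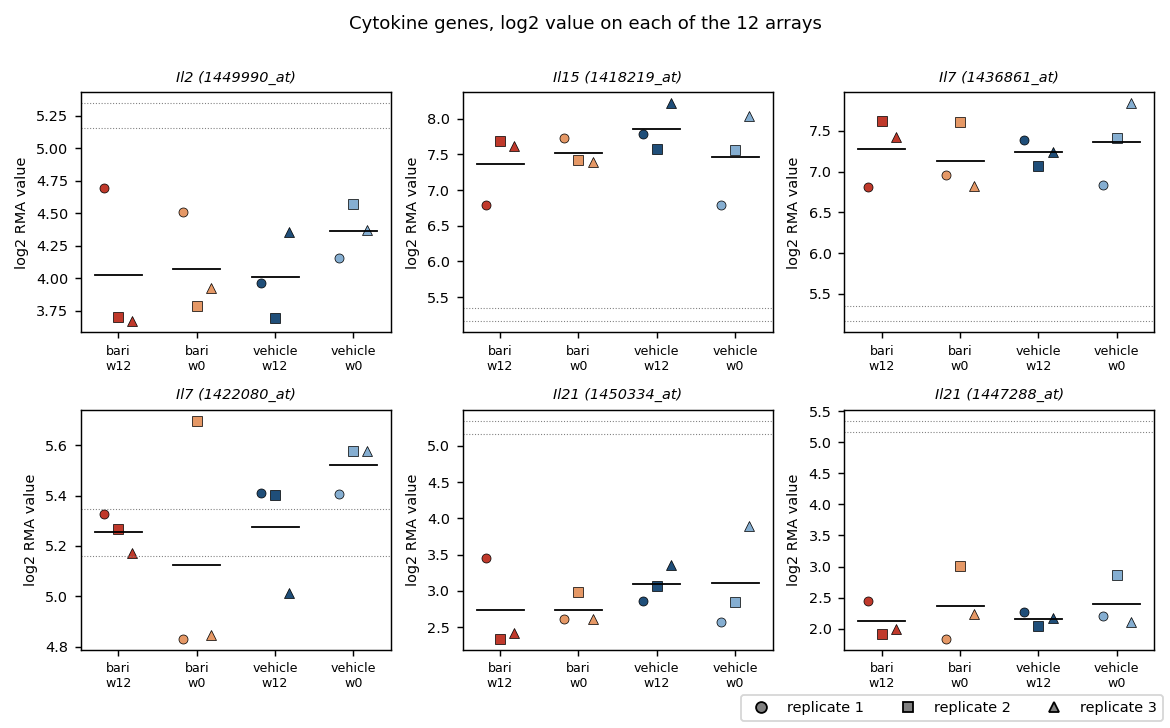
Log2 RMA value (y axis) of the 6 cytokine probe sets in the 4 groups (x axis); each point is 1 array, its shape the replicate number, black lines are group means and dotted lines the lowest and highest array median. Il15 and Il7 1436861_at lie above the dotted lines throughout, and Il2 and both Il21 probe sets below them.

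The other ligands and receptors that use the shared chain or a close relative of it gave no call. Of Il4, Il9, Il4ra, Il9r, Tslp and Crlf2, 0 of 6 were called in baricitinib week 12 against baricitinib week 0 or against vehicle week 12, with medians of -0.07 and -0.08, beside -0.02 and -0.04 over all genes. Crlf2, the TSLP receptor chain, had the lowest estimate against baricitinib week 0, -0.95 (SE 0.45, limma adjusted p = 0.436), and -0.78 against vehicle week 12 (SE 0.45). Il4ra, the IL-4 receptor chain, gave -0.52 (SE 0.46) and -0.31 (SE 0.46). Of the kinases and transcription factors Jak1, Jak3, Stat3, Stat5a, Stat5b and Stat6, 0 of 6 were called in either comparison. Stat5b had the highest estimate against baricitinib week 0, 0.53 (SE 0.22, limma adjusted p = 0.340), and Jak1 was -0.47 against vehicle week 12 (SE 0.22, limma adjusted p = 0.493). These are levels of transcripts, and the activity of the kinases was not measured.

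Of 12 genes known as targets of STAT5, 1 passed the test in baricitinib week 12 against baricitinib week 0 and 0 against vehicle week 12. This was Osm, the cytokine oncostatin M, which fell by 1.49 on the log2 scale (SE 0.28, limma adjusted p = 0.0310). Leaving out 1 array took its adjusted p to between 0.0224 and 0.135. In 6 of 12 such fits it was not called. These were the fits without any 1 of the baricitinib week 0 arrays, baricitinib week 12 replicate 2 or 3, or vehicle week 12 replicate 2. A fixed replicate block for the mouse gave a limma adjusted p of 0.0779. Lta, lymphotoxin alpha, gave -1.54 (SE 0.34, limma adjusted p = 0.0536). Cish, the STAT5-induced inhibitor of the same receptors, gave 0.07 (SE 0.25) against baricitinib week 0 and 0.15 (SE 0.25) against vehicle week 12. The list's median was -0.22 against baricitinib week 0 and -0.07 against vehicle week 12, beside -0.02 and -0.04 over all genes. Before treatment, in baricitinib week 0 against vehicle week 0, it was 0.16, with 2 of 12 estimates below 0.

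Marker lists of lymphocytes, the cells that carry these receptors, held some genes that were called and many that were not. Of NK and cytotoxic cell genes, 4 of 11 were lower and 0 higher in baricitinib week 12 than in baricitinib week 0, and 4 of 11 than in vehicle week 12. These were Gzma, Gzmb, Klrc1 and Ccl5, which fell by 5.42, 5.05, 2.54 and 3.21 on the log2 scale against baricitinib week 0 (limma adjusted p = 0.0176, 0.00128, 0.00717 and 0.0105). Gzmb and Klrc1 kept their calls against baricitinib week 0 in all 12 fits that left out 1 array, while Gzma lost its call without baricitinib week 0 replicate 1 or 3 or baricitinib week 12 replicate 3, and Ccl5 without baricitinib week 0 replicate 3. A fixed replicate block for the mouse gave limma adjusted p-values of 0.0630 for Gzma and 0.0560 for Ccl5. Against vehicle week 12, each of the 4 lost its call without vehicle week 12 replicate 1 (limma adjusted p up to 0.113), and Gzma, Klrc1 and Ccl5 also without vehicle week 12 replicate 2, Gzma and Klrc1 also without baricitinib week 12 replicate 3. The mean log2 value over the 11 genes was 4.77 to 5.80 per array in the baricitinib week 12 samples. It was 6.95 to 7.35 in the baricitinib week 0 samples and 6.48 to 7.12 in the vehicle week 12 samples. Of the 11 estimates, 10 were below 0 in each of these comparisons, with medians of -1.21 and -1.01. In vehicle week 12 against vehicle week 0 all 11 were below 0, with a median of -0.63. Of T cell genes 1 of 11, Cd8a, was lower in both comparisons, with log2 differences of -4.29 and -4.39 (limma adjusted p = 0.00912 and 0.0109), the second not called without vehicle week 12 replicate 1 (0.0634) or 2. The other 10 were not called, among them Cd3d at -0.08, Cd3e at 0.01, Cd3g at 0.55, Cd247 at 1.01 (limma adjusted p = 0.123) and Zap70 at -1.11 (limma adjusted p = 0.189) against baricitinib week 0. Below 0 were 7 of the 11 estimates against baricitinib week 0 and 8 against vehicle week 12, with medians of -0.36 and -0.29. In vehicle week 12 against vehicle week 0, 7 were below 0, with a median of -0.22. The mean over the list, Cd8a included, was 5.89 to 6.43 per array in the baricitinib week 12 samples, against 6.26 to 7.21 in the baricitinib week 0 samples and 6.50 to 7.12 in the vehicle week 12 samples. Of tissue-resident T cell genes 2 of 6, Cd69 and Rgs1, were lower than in baricitinib week 0 and 1, Rgs1, than in vehicle week 12. All 6 estimates were below 0 in both comparisons, with medians of -1.40 and -1.40, beside -0.02 and -0.04 over all genes. In vehicle week 12 against vehicle week 0, 4 of 6 were below 0, with a median of -0.15. Cd69 was not called in 10 of the 12 fits that left out 1 array (limma adjusted p up to 0.179), nor with the fixed replicate block (0.156). Rgs1 was not called against vehicle week 12 in 9 of the 12, nor against baricitinib week 0 without baricitinib week 0 replicate 3 (0.0625). Of B cell markers 0 of 6, of macrophage and dendritic cell markers 0 of 10 and of mast cell markers 0 of 6 were called in either comparison.

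Lists of other skin cells and of the interferon-γ response held calls as well. Of 12 genes of that response, Ifng included, 8 were lower in baricitinib week 12 than in baricitinib week 0 and 6 than in vehicle week 12, with medians of -2.58 and -1.78. Cxcl9, Cxcl10 and Cxcl11, which encode chemokines that draw in T cells, fell by 5.02, 5.41 and 6.31 on the log2 scale against baricitinib week 0. They and Ifng kept their calls in this comparison in all 12 fits that left out 1 array. Irf1 was not called in 9 of these fits, Gbp2 in 6, Iigp1 in 3 and Gbp3 in 1. Against vehicle week 12, Gbp2 was not called in 11 of the 12, Iigp1 in 10, Gbp3 in 9 and Ifng in 4. These counts do not imply a call in the fit of all 12 arrays, where 6 genes of the response were called. Of 7 hair matrix and shaft genes 4 were lower than in baricitinib week 0 and 2, Krt35 and Shh, than in vehicle week 12, with medians of -2.79 and -1.60. Only Krt35, a hair keratin, kept its call against baricitinib week 0 in all 12 such fits, and Krt31 was not called in 9 of them, Msx2 in 4 and Shh in 1. Against vehicle week 12 Krt35 was not called in 4 of the 12 fits, Shh in 8 and Cxcl10 in 1. Of 5 adipocyte genes 1, Cidec, a lipid droplet protein, was higher than in baricitinib week 0, by 2.76 on the log2 scale, and not called in 3 of the 12 fits, and 0 were called against vehicle week 12, with medians of 2.44 and 2.01. A fixed replicate block for the mouse gave limma adjusted p-values of 0.0692 for Krt31, 0.0843 for Msx2, 0.0603 for Shh and 0.0799 for Cidec. For Irf1 and Gbp2 it gave 0.0815 and 0.0921. Of keratinocyte markers 0 of 7, of fibroblast markers 0 of 6 and of skeletal muscle markers 0 of 6 were called in either comparison. The part of these cells, and of the lymphocytes, in the values of the receptor genes was not tested.

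**Figure D5:**
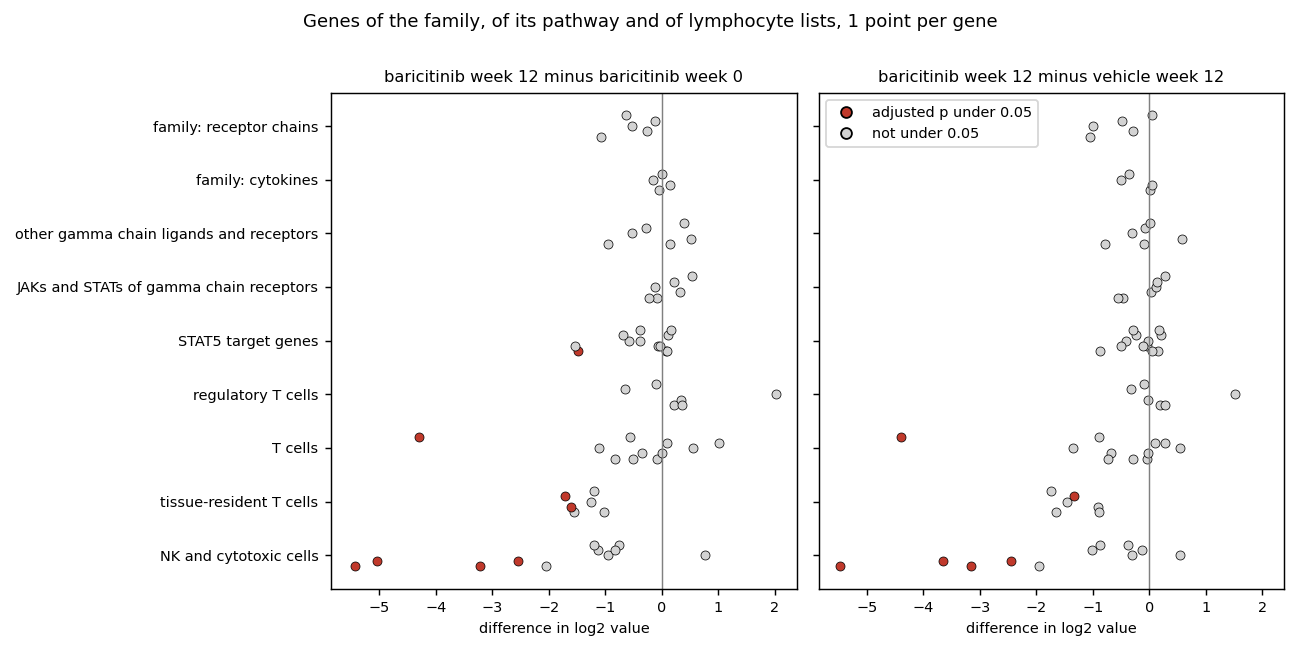
Difference in log2 value (x axis) of each gene's probe set with the highest mean, by gene list (y axis), for baricitinib week 12 minus baricitinib week 0 (left) and minus vehicle week 12 (right); 1 point is 1 gene, red where the limma adjusted p was under 0.05. No gene of the family is red, while 4 of 11 NK and cytotoxic cell genes are red in both panels.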

How the data were processed

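RNA from whole skin was amplified, labelled and hybridised to Affymetrix mouse genome arrays by the authors, who normalized the arrays by RMA. The deposited log2 values were used with no further normalization or filter. The version of RMA is not given in the sources used here. Tests covered 45037 probe sets, without the 64 controls. Names came from the platform annotation, in which 34945 had 1 symbol, 932 several and 9160 none. A probe set that carries Il2 with another gene was not used, and Il2rg was not analysed here because no probe set with 1 symbol carries its name.

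Group means were estimated in R 4.3.3 by limma 3.58.1 (8 residual and 3.54 prior degrees of freedom). The Benjamini-Hochberg adjustment ran over all 45037 probe sets, and the threshold was 0.05. All probe sets that carry the symbol of a family member alone are given, and for counts of genes the probe set with the highest mean stood for its gene. From other lists, called genes with the largest changes are named, at most 4 per direction. Some uncalled genes of the T cell and STAT5 target lists, such as Cd3d, Zap70, Lta and Cish, are named outside this rule. All genes of the receptor and JAK-STAT lists and all called genes of the interferon-γ response are named as well. The members, lists and motifs were chosen with earlier results of these data known. The labels number each mouse at both times. Deviations from group means, correlated between the 2 arrays of a mouse, gave -0.36, -0.51 and 0.47 for baricitinib and 0.44, -0.13 and 0.49 for vehicle. No 2 arrays of a group correlated above 0.989. The precision is limited by 3 mice per group. Sequences are from RefSeq, and figures were drawn with matplotlib 3.10.9 in Python 3.11.15. The script was tested on simulated data. The following were tried as alternatives: leaving out each array in turn or the 2 arrays of lowest correlation, the index of 3′ against 5′ signal as a covariate, a replicate block for the mouse (fixed or random), array weights, median centring or cyclic loess, removal of dim probe sets, a level-dependent prior variance, fitting the compared groups alone, and averaging a gene's probe sets.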

Additional observations from a re-analysis of the deposited data

Results flagged for a closer look

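One probe set of Il2rb, 1417546_at, moved one way in every baricitinib mouse and the other way in every vehicle mouse. Between week 12 and week 0 it was higher by 0.14, 0.15 and 0.13 in the baricitinib mice, against changes of -0.96, -0.16 and -0.12 in the vehicle mice, all on the log2 scale. The difference between the mean changes was 0.56 (SE 0.44), and its test in the same limma fit gave an adjusted p of 0.942. The probe set was below the array median on all 12 arrays. With the index as a covariate, its difference against baricitinib week 0 was -0.18 (SE 0.26), where the fit without the index gave 0.14 (SE 0.31). Against vehicle week 12 it was 0.11 (SE 0.26) with the index and 0.42 (SE 0.31) without. The brighter Il2rb probe set, 1448759_at, did not share the pattern, with changes of -1.18, 1.71 and -1.31 in the baricitinib mice and -0.75, 0.06 and -1.12 in the vehicle mice. Probe set 1417546_at is the only one of the 15 with opposite signs in all mice of the 2 treatments. The share of all probe sets with this pattern is not given here, so the 1 of 15 has no background to be read against.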

How the results depend on the processing

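The count of family genes called, 0 in each of the 5 comparisons, held under all alternatives but those given here. With array weights it was 5 in baricitinib week 12 against baricitinib week 0 (Il2, Il7, Il2ra, Il2rb and Il7r), 4 in baricitinib week 12 against vehicle week 12 (Il21, Il2ra, Il7r and Il15ra), 2 in vehicle week 12 against vehicle week 0, 2 for the difference of the changes and 1 in baricitinib week 0 against vehicle week 0. The weights ran between 0.132 and 32.1 and their estimation did not converge. Of all 45037 probe sets, 5279 were then called lower and 5998 higher in baricitinib week 12 than in baricitinib week 0, against 394 and 163 without weights. Against vehicle week 12, the weighted fit called 5782 lower and 5423 higher, where 193 and 68 were called without weights. It called 2575 lower and 2411 higher in vehicle week 12 than in vehicle week 0. In the contrast of the 2 treatments' changes, 3345 were called below 0 and 3245 above. Baricitinib week 0 had 3316 lower and 2396 higher than vehicle week 0. The weighted calls of family genes are to be read against these numbers. Without the 2 arrays of lowest correlation the count of family genes called was 1, Il2ra, in baricitinib week 12 against baricitinib week 0. Leaving out each array in turn, it ran between 0 and 1 there, the 1 being Il2ra without baricitinib week 0 replicate 2, and was 0 in the other comparisons. A fixed replicate block for the mouse gave 0, and over all probe sets 130 were lower and 28 higher in baricitinib week 12 than in baricitinib week 0. A random replicate block gave 0 as well, with 393 of all probe sets lower and 160 higher in that comparison. Of all probe sets, the fit of only the groups compared called 88 lower and 9 higher in this comparison and 43 and 12 against vehicle week 12, where the fit of all arrays called 193 and 68. The index as a covariate called 985 and 778, and 488 and 304. Without the 2 arrays of lowest correlation 512 and 348 were called, and 565 and 443. Leaving out 1 array gave between 60 lower (without baricitinib week 0 replicate 3) and 749 (without baricitinib week 12 replicate 1) in the first comparison, and between 21 (without vehicle week 12 replicate 1) and 367 (without baricitinib week 12 replicate 1) against vehicle week 12. With the filter on dim probe sets the numbers were 543 and 275, and 279 and 100. Of the values of single family genes under alternatives, 20 of 204 in baricitinib week 12 against baricitinib week 0 and 19 of 195 against vehicle week 12 changed sign. For Il2ra none did, the differences lying between -1.55 and -0.83 against baricitinib week 0, and between -1.29 and -0.64 against vehicle week 12. The causes were not tested. Standard errors of the 15 probe sets lay between 0.22 and 0.81, so that with 3 arrays a group a change of 1 on the log2 scale could go uncalled.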
